A study of Mus musculus with 16 samples.

Results

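Open chromatin was described across Bcl11b and the gene desert on its 3′ side, in thymocytes of 4 stages. The members were the peaks of each stage that overlapped, by at least 1 bp, the Bcl11b gene body, 100 kb on its 5′ side or 1100 kb on its 3′ side. These were 911 of the 476734 peaks in the 4 lists, namely 240 of 150139 DN peaks, 233 of 107110 DP peaks, 225 of 115074 SP4 peaks and 213 of 104411 SP8 peaks. Bcl11b (ENSMUSG00000048251.15) lies on the minus strand of mm10 at chr12:107910403-108003602, so that downstream is toward lower positions, and the window ran from 106810403 to 108103602. Peaks of different stages that shared at least 1 bp were merged, which gave 354 regions in the window of 185978 in all. A region is named here by the distance of its middle from the 5′ end of the gene in kb, with a plus sign for downstream.

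ATAC-seq, in which a transposase cuts and tags accessible DNA, had been performed on DN thymocytes (CD4-CD8-), DP thymocytes (CD4+CD8+), CD4 SP thymocytes (SP4) and CD8 SP thymocytes (SP8). The cells were sorted by flow cytometry from wild type C57BL/6J mice aged 9 weeks with no treatment named. The labels give the same 4 mice for every stage, so 4 animals gave 16 libraries. Peaks had been called on the pooled reads of the 4 mice, so each stage is 1 list without a spread between mice, no test between stages was possible, and comparisons describe these lists. Of 9 T lineage genes (such as Cd3e and Lck), 9 had a called region over a TSS at every stage. The same held for 12 of 12 T cell commitment factors, and for 4 (DN), 2 (DP), 2 (SP4) and 2 (SP8) of 11 genes of B, myeloid, erythroid, natural killer and dendritic cells.

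Bcl11b is a zinc finger transcription factor that early thymocytes need to commit to the T lineage, and it is switched on during the DN stages and kept on in later T cells. Its neighbourhood downstream holds no other well-studied protein-coding gene, and a distant enhancer there, with a noncoding RNA transcribed from it, is known to take part in switching the gene on. Open chromatin far from a TSS often marks such enhancers.

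The sequences of 9 regions are shown first because the comparisons turn on them. Those at +75.4 kb and +82.4 kb held the highest cut counts in the window, and +436.9 kb was among the most enriched regions at all stages. The region at +843.4 kb lay over the start of the noncoding gene Gm16084 and +820.0 kb over that of Gm2800. The regions at +535.5, +585.0, +1077.3 and +1100.5 kb had levels that differed widely between stages. Each line gives 200 bases around the summit of the region's most enriched peak, plus strand, 5′ to 3′, from the RefSeq copy of GRCm38.p6. Capitals mark matches to the motifs searched, which are spelled out below.
+75.4 kb, chr12:107928029-107928228: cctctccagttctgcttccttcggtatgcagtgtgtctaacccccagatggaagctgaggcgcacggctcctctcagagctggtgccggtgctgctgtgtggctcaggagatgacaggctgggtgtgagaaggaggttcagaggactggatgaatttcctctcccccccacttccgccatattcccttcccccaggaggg
+82.4 kb, chr12:107921211-107921410: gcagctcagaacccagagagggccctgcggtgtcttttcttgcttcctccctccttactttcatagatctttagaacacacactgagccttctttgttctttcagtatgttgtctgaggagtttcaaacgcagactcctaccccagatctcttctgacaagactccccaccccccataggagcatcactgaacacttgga
+436.9 kb, chr12:107566572-107566771: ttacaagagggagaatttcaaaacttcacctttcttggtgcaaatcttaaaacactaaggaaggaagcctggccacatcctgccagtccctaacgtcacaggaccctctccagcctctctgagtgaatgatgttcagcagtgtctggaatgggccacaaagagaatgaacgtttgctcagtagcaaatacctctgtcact
+535.5 kb, chr12:107467929-107468128: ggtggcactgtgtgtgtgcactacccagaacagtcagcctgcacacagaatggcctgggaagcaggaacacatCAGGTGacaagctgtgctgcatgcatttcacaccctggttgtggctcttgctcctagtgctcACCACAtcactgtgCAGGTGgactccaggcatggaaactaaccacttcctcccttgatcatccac
+585.0 kb, chr12:107418522-107418721: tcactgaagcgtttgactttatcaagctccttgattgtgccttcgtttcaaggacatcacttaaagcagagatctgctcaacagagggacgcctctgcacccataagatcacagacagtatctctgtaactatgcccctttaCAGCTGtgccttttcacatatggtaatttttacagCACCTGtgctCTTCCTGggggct
+820.0 kb, chr12:107183407-107183606: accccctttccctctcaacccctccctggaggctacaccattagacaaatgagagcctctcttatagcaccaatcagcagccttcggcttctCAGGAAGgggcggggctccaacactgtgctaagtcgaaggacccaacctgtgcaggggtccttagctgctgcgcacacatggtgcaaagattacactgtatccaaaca
+843.4 kb, chr12:107160090-107160289: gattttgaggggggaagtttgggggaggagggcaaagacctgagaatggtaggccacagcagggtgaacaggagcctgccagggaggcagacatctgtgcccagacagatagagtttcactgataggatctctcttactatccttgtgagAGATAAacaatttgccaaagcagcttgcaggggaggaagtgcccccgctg
+1077.3 kb, chr12:106926157-106926356: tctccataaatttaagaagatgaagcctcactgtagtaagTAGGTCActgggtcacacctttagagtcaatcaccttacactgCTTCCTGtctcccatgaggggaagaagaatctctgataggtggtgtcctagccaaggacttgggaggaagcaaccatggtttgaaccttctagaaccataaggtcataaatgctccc
+1100.5 kb, chr12:106902840-106903039: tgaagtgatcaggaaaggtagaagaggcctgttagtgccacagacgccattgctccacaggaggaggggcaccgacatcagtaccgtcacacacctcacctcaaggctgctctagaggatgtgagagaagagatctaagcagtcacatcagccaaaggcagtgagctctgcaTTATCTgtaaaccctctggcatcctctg
Of these 9, the sequences at +75.4, +82.4 and +436.9 kb held no match in 200 bases. The one at +585.0 kb held both E-boxes and the ETS motif, the one at +535.5 kb CAGGTG at 2 places and the RUNX motif, and the one at +1077.3 kb the ETS and ROR motifs. The ETS motif stood at +820.0 kb and the GATA motif at +843.4 and +1100.5 kb.

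Each peak carried a fold enrichment over the local background and a p-value. From this pair the pile-up at the summit, called the cut count here, was recovered as a whole number for 99.997% to 99.999% of the peaks of each list and for every peak of the window. It counts transposase cuts within 50 bp of the summit over the 4 pooled mice. The cut count divided by the genome-wide mean for the same 100 bp (DN 3.51, DP 3.28, SP4 3.22, SP8 3.58) is called the level. Exact 95% Poisson intervals, which cover counting error only, are given for the regions described in most detail, and for others it is said where they did not overlap. A percentile is the share of the peaks of the same list with a lower value.

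The gene body held the densest open chromatin of the window. Over 93.2 kb it carried 37 peaks at each of DN and DP, 43 at SP4 and 49 at SP8. Per 100 kb this was 6.51, 9.13, 9.87 and 12.4 times the density of the respective whole list. The count was highest at SP8, whose whole list was the shortest (104411 peaks). It was lowest at DN, whose list was the longest (150139 peaks), and at DP. The background around the peaks was also high. It is a mean over 10 kb with the genome-wide mean as its floor. It includes the cuts of the peaks themselves, so it does not measure the signal between them. The local background that the caller had set at the gene body peaks had a median of 10.1 (DN), 9.43 (DP), 9.99 (SP4) and 9.55 (SP8) times the genome-wide mean. Medians over the lists were 1.66, 1.68, 1.63 and 1.78. It peaked at 27.6 times at DN and 29.8 at DP, both at +77.3 kb, and at 24.1 times at SP4 and 20.8 at SP8, both at +81.8 kb. Of the gene body peaks, 34 of 37, 31 of 37, 42 of 43 and 43 of 49 stood over the 95th percentile of local background of their list.

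**Figure D1:**
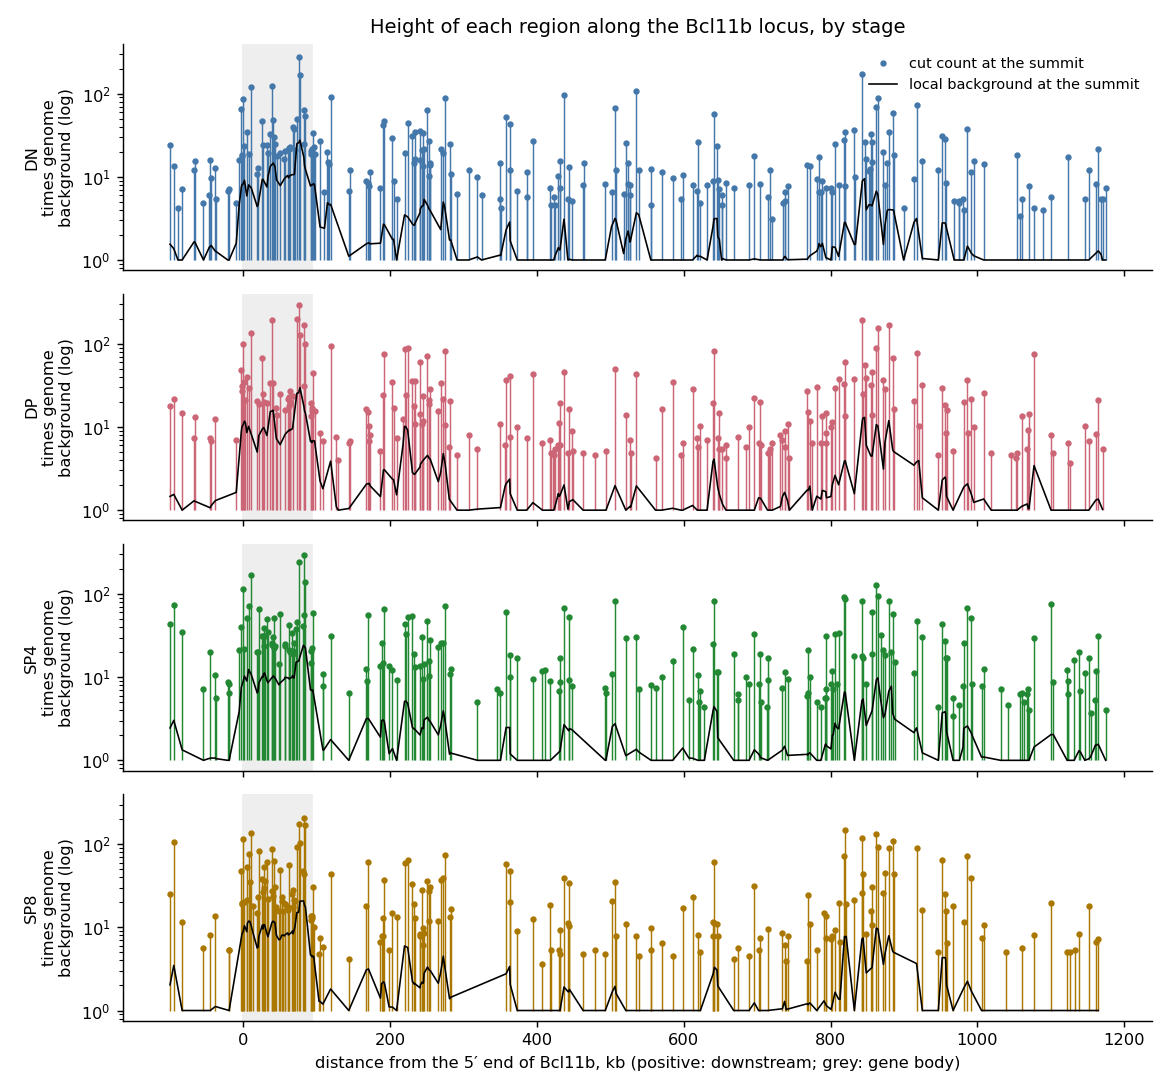
Height of each merged region (points, cut count at the summit over the genome-wide mean, log axis) and its local background (black line) against the distance from the 5′ end of Bcl11b in kb, with 1 panel per stage and the gene body in grey. The black line stands near 10 across the gene body, rises again near +240 and +860 kb, and lies near 1, its floor, over much of the rest.

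The 2 measures of height ranked the gene body differently. By fold enrichment, its peaks had median percentiles of 1.43 (DN), 1.90 (DP), 4.50 (SP4) and 4.47 (SP8), and 25 of 37, 24 of 37, 29 of 43 and 30 of 49 lay under the 10th percentile. By cut count, the median percentiles of the same peaks were 74.8, 72.4, 77.9 and 72.3. On the 3′ side the medians by fold enrichment were 48.6, 48.6, 52.9 and 45.4, and by cut count 48.3, 45.9, 46.7 and 40.6. Since fold enrichment divides by the local background, levels are used for the single regions of the gene body below.

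**Figure D2:**
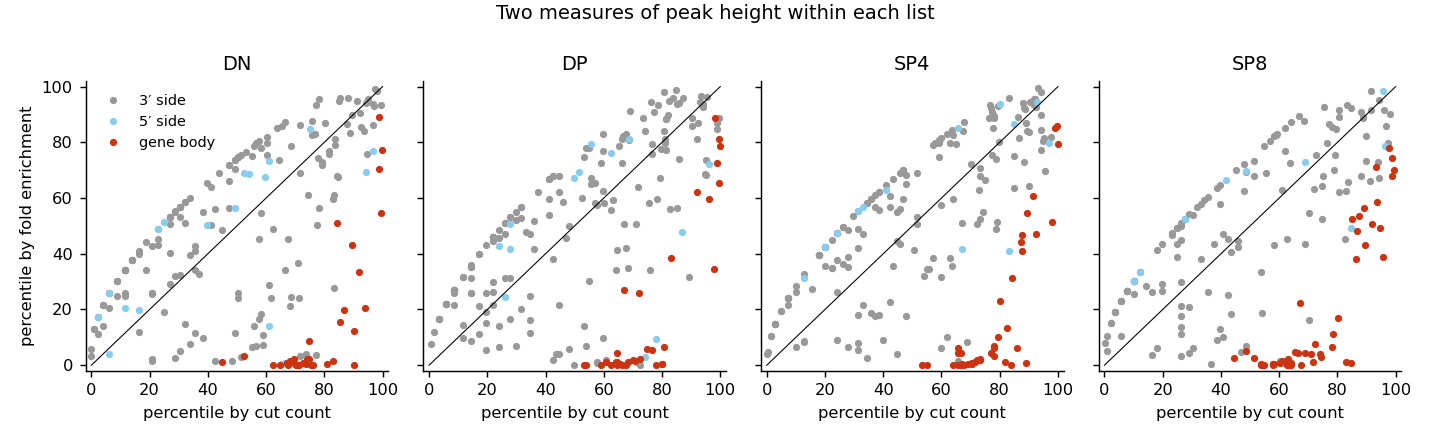
Percentile by fold enrichment against percentile by cut count within each list, 1 point per region and stage, with gene body regions in red, the 5′ side in blue and the 3′ side in grey. Most red points lie at the bottom right, low by fold enrichment and above 50 by cut count.

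At the 5′ end, 2 regions lay over a TSS of a Bcl11b transcript, both called at all 4 stages. The region at -0.4 kb (chr12:108003783-108004322) covered the RefSeq TSSs at 108004133 to 108004145. None lay over the GENCODE TSSs at 108003602 and 108003414, and this region began 181 bp upstream of the former. Its cut counts were 307 (DN), 327 (DP), 365 (SP4) and 418 (SP8), which are levels of 87.5, 99.8, 113 and 117. Stages next to each other in this order had overlapping counting intervals, whereas DN (78.0 to 97.8) lay below SP4 (102.1 to 126) and SP8 (106 to 128). The region at +10.5 kb (chr12:107992684-107993587) covered the TSSs of 3 predicted RefSeq transcripts. Its cut counts were 426, 445, 544 and 490, with levels of 121, 136, 169 and 137. Both regions therefore stood at least 87.5 times over the genome-wide mean at every stage.

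Inside the gene, several intronic regions varied more between stages than the TSS regions. The highest cut counts of the window at DN and DP were at +75.4 kb (chr12:107927915-107928463), with 956 (DN), 957 (DP), 790 (SP4) and 625 (SP8). The levels were 272, 292, 245 and 174, and the counting interval at SP8 (161 to 189) lay below the other stages. The region at +82.4 kb (chr12:107920906-107921598), farther toward the 3′ end of the gene, held the highest counts at SP4 and SP8. Its cut counts were 226 (DN), 550 (DP), 959 (SP4) and 734 (SP8), or levels of 64.4 (56.3 to 73.4), 168 (154 to 183), 298 (279 to 317) and 205 (190 to 220). All 4 intervals were separate. Its neighbour at +84.6 kb had levels of 54.4, 99.5, 139 and 168, so that both rose from DN over DP to SP4. Against SP4, SP8 was lower at +82.4 kb and higher at +84.6 kb.

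Other intronic regions also fell into both kinds. At +72.9 kb the level was 49.3 (DN), 198 (DP), 46.3 (SP4) and 93.0 (SP8), so that DP stood out, with its interval above the others. At +38.9 kb (chr12:107964263-107965122) it was 124, 193, 24.5 and 87.4 in the same order. The summits in this 860-bp region lay up to 645 bp apart, so the stages may not mark the same site. At +7.2 kb, on the other hand, SP4 (70.8) and SP8 (75.7) stood over DN (18.8) and DP (29.6). The SP stages were also the higher ones at +32.1 kb, with 23.9, 19.2, 50.3 and 61.7, and at +50.2 kb, with 19.4, 24.7, 57.5 and 48.6. In these 3 regions the intervals of SP4 and SP8 lay above those of DN and DP. At +40.6 kb DN was highest, with 48.7, 34.2, 30.1 and 23.7. At +77.1 kb, where the local background was highest at DN and DP, the cut count was 594 (DN), 422 (DP) and 373 (SP8), with no call for SP4.

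The 3′ side of 1100 kb held 183 peaks at each of DN and DP, 168 at SP4 and 151 at SP8. Per 100 kb these were 16.6, 16.6, 15.3 and 13.7, or 2.73, 3.83, 3.27 and 3.24 times the density of the lists. On the 5′ side the ratios were 3.28, 2.99, 2.996 and 3.07. The next manually annotated protein-coding gene downstream is Vrk1 (a nuclear serine/threonine kinase), which ends 1833 kb from the 3′ end of Bcl11b. On the 5′ side the near end of Setd3, which encodes an actin methyltransferase, lies at 108106431. Among 603 intervals of at least 500 kb between neighbouring manually annotated protein-coding genes, the interval between Vrk1 and Bcl11b held the most peaks at every stage, with 232, 225, 267 and 204. By peaks per 100 kb it ranked 8 (DN), 6 (DP), 3 (SP4) and 7 (SP8), at 12.7, 12.3, 14.6 and 11.1 against medians of 0.58, 0.23, 0.27 and 0.22. An automatically annotated gene, 3110018I06Rik, lies in the desert at +514.0 kb, and no region overlapped it. With that gene counted, the interval from Vrk1 up to it (1411.2 kb) ranked 14, 12, 3 and 10 of 601 by density and 4, 3, 1 and 3 by count.

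Of the 354 regions, 227 were intergenic, 109 intronic, 10 exonic, 6 over a TSS and 2 in the 200 bp upstream of one. The noncoding genes with most regions were Gm15208 (18 regions, 12 of them open at every stage), 1700013N06Rik (11 and 3), Gm16084 (9 and 4) and Gm3234 (9 and 2). Regions lay a median of 1.676 kb apart. The longest stretch without a peak of any stage was 24.1 kb, from +744.1 to +768.1 kb.

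Regions called at all stages were most numerous in 2 bands of the desert. Between +800 and +900 kb there were 35 regions, of which all stages shared 17, and between +200 and +300 kb 31 regions, with 18. The other full 100-kb bands from +100 to +1100 kb held 15 to 33 regions, of which 3 to 9 were called at all stages. The band from +700 to +800 kb held 33 regions, with 7 called at all stages, so the count of all regions did not set the 2 bands apart. The local background, a mean over 10 kb that includes the peaks, is given beside them. It does not go below the genome-wide mean, so values close to that mean do not show how low the signal was. Its median was 3.98 (DN), 4.49 (DP), 3.76 (SP4) and 4.81 (SP8) times the genome-wide mean between +800 and +900 kb. Between +200 and +300 kb it was 3.60 and 3.63 at DN and DP but 2.56 and 2.19 at SP4 and SP8. For the rest of the 3′ side it was 1.11, 1.301, 1.19 and 1.05.

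Within the band from +800 to +900 kb, the regions over the starts of 2 noncoding genes differed in how DN and DP stood to SP4 and SP8. The start of Gm16084 at +843.4 kb (chr12:107159833-107160636) held 609 (DN), 639 (DP), 264 (SP4) and 431 (SP8) cuts. The levels were 174 (160 to 188), 195 (180 to 211), 82.0 (72.4 to 92.5) and 120 (109 to 132), higher at DN and DP than at SP4 and SP8. The summits of the 4 stages lay within 6 bp. The start of Gm2800 at +820.0 kb (chr12:107183295-107183830) held 120, 196, 282 and 535 cuts. Its levels were 34.2 (28.4 to 40.9), 59.8 (51.8 to 68.8), 87.6 (77.7 to 98.4) and 149 (137 to 163), higher at SP4 and SP8 than at DN and DP, and all 4 intervals were separate. At both starts SP8 was above SP4 and DP above DN, though at Gm16084 the intervals of DN and DP overlapped. The summits at Gm2800 lay within 12 bp. Each gene's own transcript level was not measured here.

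Other strong regions of this band, at +862.4, +864.5 and +879.4 kb, were intergenic. At +862.4 kb the level was 70.1 (DN), 89.8 (DP), 129 (SP4) and 132 (SP8). At +879.4 kb it was 35.1, 167, 82.3 and 89.1, with DP highest, and +864.5 kb also had its highest level at DP, with 89.2, 156, 94.4 and 92.1. The intervals of SP4 and SP8 at +862.4 kb, and those of DP at the other two, lay above the remaining stages. In the band from +200 to +300 kb, the start of Gm15208 at +219.6 kb had levels of 19.1, 87.0, 43.5 and 58.9, with summits up to 251 bp apart. The region at +1138.5 kb, over a TSS inside the noncoding gene 1700013N06Rik, was called at SP4 (19.9) and SP8 (8.4) only. It is not the 5′ end of that gene, which lies at 106837982. The region nearest to that end, at +1164.8 kb, was called at all 4 stages.

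Among regions called at all 4 stages away from a Bcl11b TSS, the 8 with the highest lowest percentile by fold enrichment all lay in the desert. Fold enrichment ranks most gene body regions low, so this does not make the desert regions the highest by cut count. By cut count +75.4 kb stood at percentiles of 98.8 to 99.97, against 65.5 to 79.3 for +696.2 kb, which is among the 8. The region at +274.2 kb, over an exon of the noncoding gene 4930465M20Rik, varied little, with 314, 271, 229 and 265 cuts. Its percentiles by fold enrichment were 93.8, 93.8, 92.6 and 91.7. At +436.9 kb (chr12:107566390-107566933) the cut counts were 343 (DN), 150 (DP), 220 (SP4) and 140 (SP8), with percentiles by fold enrichment of 99.1, 94.2, 95.4 and 89.0. Its level was highest at DN (97.7) and lowest at SP8 (39.1). At +986.6 kb the levels were 37.3 and 36.6 at DN and DP and 67.1 and 72.9 at SP4 and SP8, with the intervals of the SP stages above the others. The remaining 5 regions, at +358.0, +506.4, +641.3, +696.2 and +917.2 kb, had lowest percentiles of 85.4 to 88.9 by fold enrichment.

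**Figure D3:**
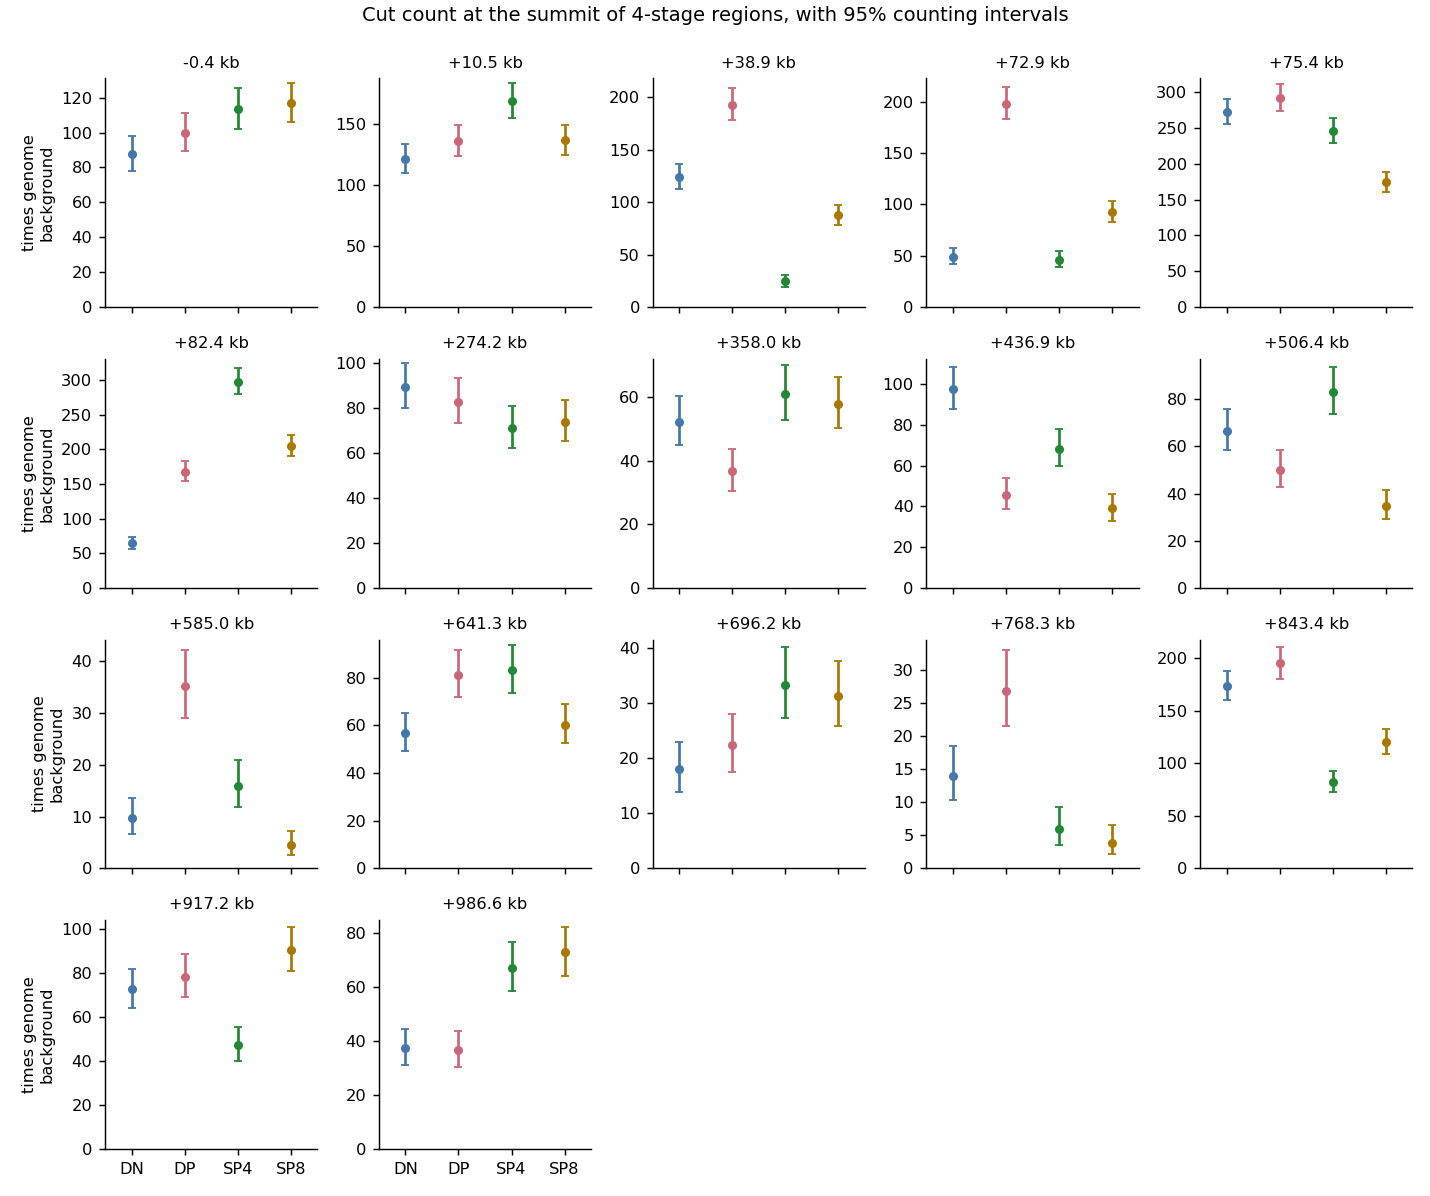
Cut count at the summit over the genome-wide mean (vertical axis, from 0) at the 4 stages for 17 regions called at all of them, in order of their distance from the 5′ end of Bcl11b. Bars are exact 95% Poisson intervals for counting error only, and the TSS regions (-0.4 and +10.5 kb) vary less than +38.9, +82.4, +585.0 and +843.4 kb.

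Some regions of the desert were high at 1 stage and close to the limit of calling at others. The region at +585.0 kb held 34, 115, 51 and 16 cuts. Its percentiles by fold enrichment were 98.2 at DP and 19.05 at SP8, and by cut count 80.6 and 3.77. The region at +1077.3 kb (chr12:106925842-106926846) held 15 (DN), 246 (DP), 95 (SP4) and 29 (SP8) cuts, though its summits lay up to 393 bp apart. At +1100.5 kb the counts were 20, 26, 244 and 71, and SP4 reached a percentile of 99.3 by fold enrichment. At +535.5 kb, in an intron of Gm3234, they were 374 (DN), 144 (DP), 99 (SP4) and 28 (SP8). Nearer the gene, +118.9 kb held 320 and 309 cuts at DN and DP and 100 and 159 at SP4 and SP8. The reverse was seen at +170.5 kb, with 30, 50, 178 and 219. At +241.3 kb the counts were 125, 200 and 30 at DN, DP and SP8, and SP4 was not called. DP was the high stage at +781.3 kb, with 33, 99, 16 and 19, DN at +619.3 kb, with 91, 19, 34 and 29, and SP4 at +598.6 kb, with 37, 21, 129 and 61. Each of the 4 stages was thus the highest at some region of the desert. A pair of neighbours at +768.3 and +769.4 kb, showed opposite orders. The former held 49, 88, 19 and 14 cuts, and the latter was not called at DN and held 50, 69 and 88 at DP, SP4 and SP8. Apart from those at +241.3, +585.0, +768.3 and +769.4 kb, the regions of this paragraph were chosen after their values were seen.

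Changes of level between stages were counted over all regions called at both. Each ratio was taken relative to the median ratio of all such regions of the genome, and a change of at least 2 times was counted. On the 3′ side, 31 of 135 regions (23.0%) were higher at DP than at DN, against a background of 5.9% of 83775 regions, and 7 (5.19%) were lower, against 13.3%. The median relative log2 ratio was 0.32. Without the centring on all regions, 20 regions and not 31 were higher, against 3.88%. From DP to SP8, 32 of 115 regions (27.8%) were lower, against 11.5%, and 11 (9.57%) were higher, against 9.65%, with a median of -0.51. From DP to SP4, 22 of 118 (18.6%) were lower, against 10.1%, and 11 (9.32%) higher, against 10.8%, with a median of -0.12. Between the SP stages, 21 of 119 (17.6%) were lower at SP8 than at SP4, against 6.99%, and 6 (5.04%) higher, against 4.75%. By these counts the desert stood highest at DP relative to other regions, although the comparisons with DP share its list.

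The gene body had fewer regions to compare. Of 26 called at DP and SP8, 5 (19.2%) were higher at SP8, against 9.65% of all regions, and 2 (7.69%) lower, against 11.5%, with a median of -0.08. From DN to DP its median was 0.32, with 4 of 24 (16.7%) higher, against 5.9%, and 0 lower, against 13.3%. The difference between the gene body and the 3′ side was not tested. On the 5′ side the region at -94.8 kb had the highest ratio of SP8 to DN among regions called at both. Its cut counts were 47 (DN), 72 (DP), 235 (SP4) and 384 (SP8).

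**Figure D4:**
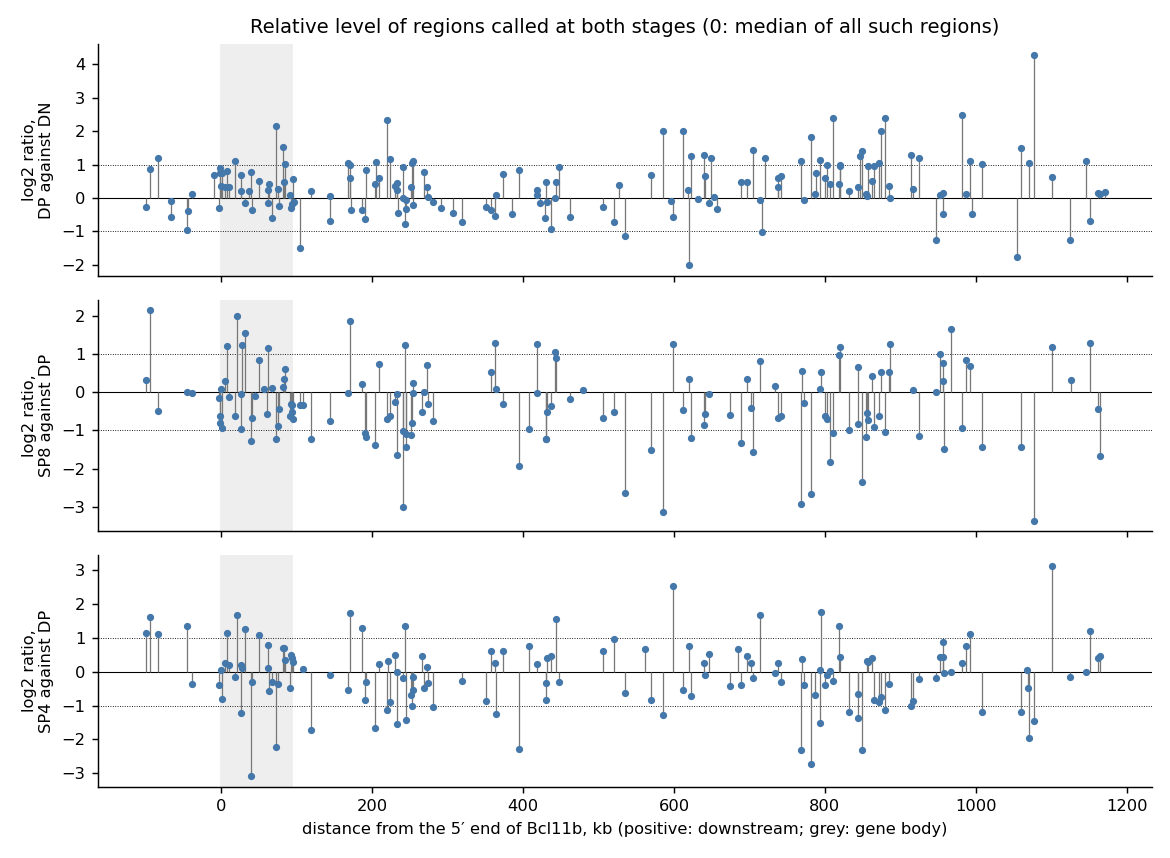
Log2 ratio of levels between stages for regions called at both, relative to the median of all such regions (0), against distance from the 5′ end of Bcl11b in kb, with dotted lines at a change of 2 times and the gene body in grey. In the upper panel more points lie above the upper dotted line than below the lower one, and in the middle panel (SP8 against DP) more lie below on the 3′ side.

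Regions were also classed by the set of stages at which they were called. All 4 stages were called at 117 of 354 regions (33.1%, against 34.1% of all regions). Regions called at DN alone numbered 35 (9.89%, against 21.7%), at DP alone 29 (8.19%, against 5.17%), at SP4 alone 33 (9.32%, against 7.39%) and at SP8 alone 17 (4.80%, against 4.21%). DN and DP alone were called at 32 regions (9.04%, against 5.59%), and SP4 and SP8 alone at 17 (4.80%, against 3.82%). Regions called at DP, SP4 and SP8 but not DN were 16 (4.52%, against 1.77%), and those called at DN, SP4 and SP8 but not DP were 14 (3.95%, against 4.05%). The DN-only share was thus lower and the share not called at DN higher in the window than in all regions. Single-stage regions had medians of 23 cuts for DN, 19 for DP, 23 for SP4 and 53 for SP8. Medians of the whole lists were 42, 41, 42 and 50 cuts, so that only SP8-only regions were not below their list. By fold enrichment the median percentiles were 18.6, 16.6, 21.7 and 6.66, lowest for the SP8-only regions. Of these 17 regions, 7 lay in the gene body. Regions called at all 4 stages had a median of 120 at their highest stage, which takes the largest of 4 values. A region that was not called may still have held signal under the threshold. With 104411 peaks taken from each list, DN-only regions fell to 11 and DN peaks in the window to 159. This shortens the DN list from 150139 peaks over the whole genome, and the share over all regions was not computed at this setting. Whether the DN-only share then stays below that of all regions was therefore not tested.

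**Figure D5:**
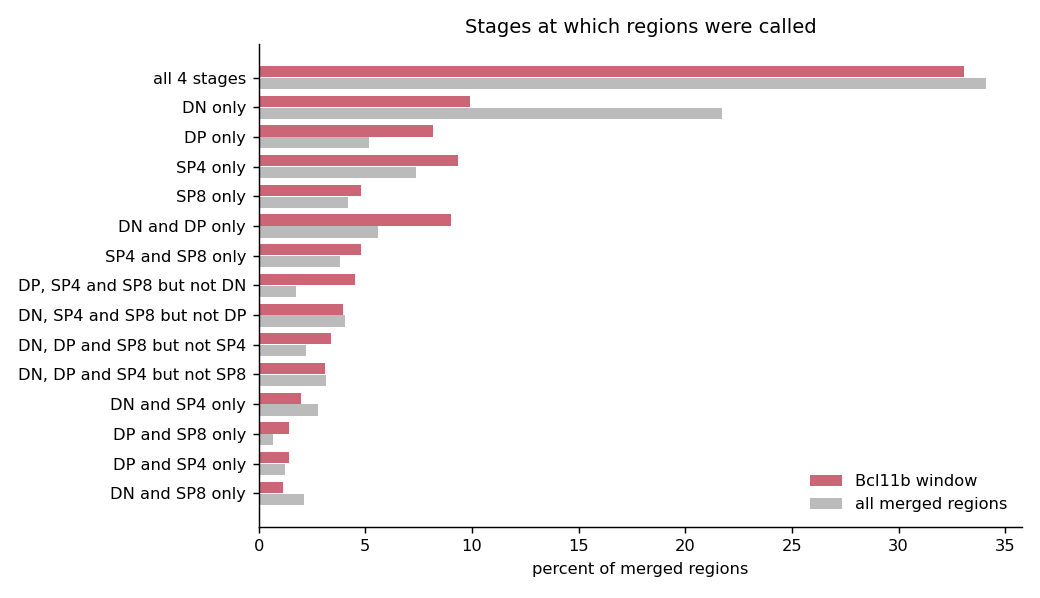
Percent of merged regions in each set of stages (horizontal bars from 0), in the Bcl11b window (354 regions, red) and among all 185978 regions (grey). The DN-only bar is shorter in the window (9.89% against 21.7%) and the bar for DP, SP4 and SP8 but not DN is longer (4.52% against 1.77%).

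By fold enrichment the highest single-stage region at DN was +464.0 kb with 51 cuts, at DP +731.8 kb with 26, at SP4 +1131.9 kb with 52 and at SP8 +791.1 kb with 53. Of the regions called at DN and DP alone, +1054.3 kb was the most enriched, with 65 cuts at DN and 16 at DP. Of those called at DP, SP4 and SP8, +794.5 kb led with 28, 101 and 49 cuts. Where a region was called at all 4 stages, its summits had a median range of 42 bp, the same as over all such regions, and 66 of 117 (56.4%, against 56.3%) lay within 50 bp.

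Motif matches were counted on both strands in 300 bp around the summit of the most enriched peak of each region. They describe letters and not binding. Of the E-boxes that E proteins bind, CAGGTG was found in 131 of 354 regions (37.0%, against 29.6% of all regions) and CAGCTG in 67 (18.9%, against 23%). The RUNX motif TGTGGT was found in 115 (32.5%, against 31.5%), the GATA motif AGATAA in 54 (15.3%, against 12.7%) and the TCF7/LEF1 motif CTTTGA in 82 (23.2%, against 22%). The ETS motif CAGGAAG was found in 93 (26.3%, against 24.5%) and the RBPJ motif GTGGGAA, read out by Notch signalling, in 27 (7.63%, against 7%). The ROR motif TAGGTCA was found in 10 (2.82%, against 2.63%) and the AP-1 motif TGANTCA in 37 (10.5%, against 9.89%). Most shares were close to their background. Among regions called at all 4 stages, the shares of the ETS motif and CAGGTG stood farthest above those of all such regions, with 43 of 117 (36.8%, against 26.1%) and 46 of 117 (39.3%, against 28.5%). CAGCTG reads the same on both strands, and matches of different motifs may share bases. The median GC content of the 300 bp was 50.8% in the window and 49.7% over all regions.

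The core consensus of CTCF, a factor that insulates neighbouring domains, was found in 0 of the 354 regions, against 2.77% of all regions. The nearest regions of any stage that held it lay at +2280.7 kb (chr12:105722612-105723139) and at -203.3 kb (chr12:108206722-108207094). The former held it on the minus strand and the latter on the plus strand, and both were called at all 4 stages. The 2483.6 kb between them held 551 regions without it. Regions with it on this chromosome numbered 253, with a median spacing of 141.4 kb, and 11 of the 252 spacings were at least as wide. A strict consensus misses degenerate sites, so that these counts say nothing of the factor itself.

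Other protein-coding genes were compared with Bcl11b by the summed fold enrichment of peaks over the gene body and 10 kb upstream. Each stage's sum was divided by the sum of its whole list and then expressed as a share over the 4 stages. The shares therefore depend on the whole lists too. The shares of Bcl11b were 17.3% (DN), 26.0% (DP), 25.1% (SP4) and 31.6% (SP8). Among 1467 other genes with at least 20 regions, the 5 nearest by Euclidean distance of the shares were Nup214 (1.15), Zc3hav1 (1.78), Fam49b (2.07), Satb1 (2.12) and St6gal1 (2.44), against a median distance of 10.5. Satb1 encodes a chromatin organiser of thymocytes and Nup214 a nuclear pore protein. The likeness rests on 4 pooled lists and on fold enrichment, which was low in the Bcl11b gene body for its cut counts.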

How the data were processed

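Chromatin accessibility was measured by ATAC-seq in 16 libraries of 4 thymocyte stages. The authors aligned reads to mm10, removed duplicates, equalised library depth, combined the reads of the 4 mice per stage, and used MACS2 at 5% FDR to call peaks, per the paper's methods and the labels. The deposited lists give each peak's interval and summit and a score from the caller. They also give a fold enrichment (ratio) over the local background, a −log10 p-value and a −log10 q-value, as the authors deposited them. Of the deposited columns of values, 0 belong to other samples. Read totals were not used here, and depth shows only in the genome-wide mean of cuts.

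Here lists were read through pandas 2.3.3 with positions counted from 1, and peaks sharing at least 1 bp were merged. Cut counts (k) and local backgrounds (λ) were solved from fold = (k + 1)/(λ + 1) and the Poisson tail p-value, with scipy 1.17.1 and a tolerance of 0.001 in −log10 p. The caller's local window was taken as its default of 10 kb. Gene and transcript positions were those of GENCODE M21 and RefSeq. The scripts were tested on simulated data.

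The members and lists were chosen with earlier results of these data known. The 41 regions chosen by a fixed rule were those over a Bcl11b TSS, the 8 regions called at all 4 stages with the highest lowest percentile by fold enrichment, up to 2 of highest percentile for each other set of stages, and the 3 called at all 4 stages with the widest range of percentiles. Cut counts, levels and a further 17 regions were added after seeing the data: those with the highest cut counts or largest changes of level on the 3′ side, and those over other TSSs. Other gene body regions, +862.4, +864.5 and +879.4 kb and -94.8 kb were also picked by their values.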

Additional observations from a re-analysis of the deposited data

How the results depend on the processing

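No paired analysis was possible because the mice of a stage were pooled before peaks were called, and for the same reason no replicate could be left out. The numbers of peaks and of merged regions and the density of the 3′ side stayed within 1.5 times, or within the 95% binomial interval for the density, at a q-value of at most 0.001, when merging within 100 bp, and when asking for the summit inside the window. Equal numbers of 104411 peaks from each list moved the DN peaks of the window from 240 to 159 and the DN-only regions from 35 to 11. DP-only regions then numbered 42. The shares over all regions were not computed at this setting, which shortens the DN list everywhere. The remaining alternatives below were partly chosen after seeing the data. Without the gene body, SP8-only regions fell from 17 to 10. Over the whole interval to Vrk1 the density ratio was 2.08 at DN, 2.82 at DP and 2.63 at SP8, against 2.73, 3.83 and 3.24, and without the band from 800 to 900 kb it was 2.54 to 3.70. Without centring on the median of all regions, 20 and not 31 regions of the 3′ side were at least 2 times higher at DP than at DN, against 3.88% of all regions. The other counts of changes stayed within 1.5 times, also with summits within 100 bp and with at least 40 cuts.

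Of the 41 regions chosen by rule, 27 were called at each stage, and their median percentile was 78.5 (DN), 72.2 (DP), 79.6 (SP4) and 67.9 (SP8). By q-value it was 75.7, 79.0, 72.3 and 60.7, and by cut count 65.5, 69.1, 65.1 and 51.5. Within equal numbers it was 70.1 (DN), 76.2 (DP) and 77.6 (SP4). Peaks beyond the equal numbers drop out, so such a median can cover fewer regions. Over all named regions 168 percentiles remained at this setting, against 175 at the others, and 0 of them were higher and 124 lower than before. Motif shares in 100 bp were lower by construction: CAGCTG 9.32% (all regions 11.7%), CAGGTG 18.1% (14.7%), RUNX 16.7% (15.8%), GATA 5.93% (3.37%), TCF7/LEF1 9.04% (7.63%), ETS 18.4% (14.2%), RBPJ 1.98% (2.15%), ROR 0.847% (0.837%) and AP-1 2.54% (3.88%), so that RBPJ and AP-1 were then below all regions. In whole regions the GATA share was 11.02% (11.5%), ROR 2.26% (2.58%) and AP-1 9.32% (9.95%), all below all regions, where in 300 bp they were above. The CTCF core consensus was found in 0 regions under each setting.

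Counting intervals leave out differences between mice, which these lists cannot show.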
